A study of Homo sapiens with 4 samples.

Results

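Keratin messenger RNA was examined in spheroids of 4 established human colon cell lines, through 9 keratin genes looked up by symbol in the table of 58740 genes. These are KRT8, KRT7, KRT80, KRT81 and KRT86, which encode type II chains, and KRT18, KRT19, KRT20 and KRT23, which encode type I chains; the table holds 54 keratin genes of both types. HCT116 and DLD-1 are colorectal carcinoma lines, SW620 was derived from a lymph node metastasis of a colorectal carcinoma, and HCEC-1CT comes from non-cancerous colon and was made immortal with CDK4 and TERT. The labels give all 4 lines as epithelial and WT. Every line was grown for 7 days in low-attachment plates of 24 wells, in Dulbecco's Modified Eagle's Medium with 10% fetal bovine serum, an antibiotic and an antimycotic. Compact spheroids were picked under a microscope, and RNA from 2 plates went into 1 library per line. There are therefore no replicates, no difference between lines could be tested, and the 3 cancer lines are different lines and not repeats of each other. A tumour line also stands for a single tumour.

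Keratins are the intermediate filament proteins of epithelial cells. A filament is built from pairs of 1 type I and 1 type II chain, so a cell that makes filaments needs both types. KRT8 and KRT18 form the basic pair of simple epithelia such as the gut lining, where KRT19 is a further type I chain and KRT20 marks the more differentiated colonocytes. KRT7 is the type II chain of ducts and glands and is usually low in colon. KRT81 and KRT86 belong to the hair keratins, KRT80 is a type II chain of many epithelia, and KRT23 is a type I chain found in some gastrointestinal tumours. In the human genome the type II genes lie together on chromosome 12 and the type I genes on chromosome 17, except KRT18, which lies beside KRT8 on chromosome 12.

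Values are FPKM, fragments scaled to transcript length and to library size, as deposited by the authors. The low values of the tables correspond to about 25300000 fragments in HCT116, 23300000 in DLD-1, 28700000 in SW620 and 29500000 in HCEC-1CT. For a transcript of 2 kb, 1 FPKM is then worth 50.6, 46.7, 57.5 and 59.0 fragments in the same order of lines. The HCEC-1CT library did not carry the markers of its labelled cell type. The 12 epithelial markers summed to 654, 1684 and 784 FPKM in HCT116, DLD-1 and SW620, against 1.23 FPKM in HCEC-1CT, where none reached 1 FPKM and 6 were listed at 0, EPCAM and CDH1 among them. The 13 fibroblast markers summed to 23.9, 1.53 and 41.8 FPKM in HCT116, DLD-1 and SW620, against 1249 FPKM in HCEC-1CT, where all 13 reached 1 FPKM. The part of this difference in the keratin results was not tested. In such libraries, fewer cells of a type and less RNA per cell cannot be told apart.

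Of the 9 genes, 2 have an entry in the RefSeq promoter table (GRCh38.p14), which gives 250 bases before to 50 after the start of transcription. They are shown because KRT8 is the most abundant of the 9 genes in every cancer line, and KRT20 the type I gene that differed most among those lines. Both are on the minus strand, at chr12:52926420-52926719 for KRT8 and chr17:40885193-40885492 for KRT20, and both are printed 5′ to 3′. Capitals mark matches to 6 motifs searched on both strands, whose matches do not overlap here. They are TATAAA for the TATA box, GGGCGG for the GC box, CCAAT for the CCAAT box, TGANTCA for AP-1, TTTATG for CDX factors and CAGGTG for the E-box of ZEB and SNAI factors.
KRT8: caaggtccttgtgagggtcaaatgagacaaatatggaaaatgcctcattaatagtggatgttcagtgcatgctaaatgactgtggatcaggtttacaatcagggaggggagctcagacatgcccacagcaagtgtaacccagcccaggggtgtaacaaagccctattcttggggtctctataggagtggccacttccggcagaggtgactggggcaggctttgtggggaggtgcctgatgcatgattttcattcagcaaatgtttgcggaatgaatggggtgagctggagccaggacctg
KRT20: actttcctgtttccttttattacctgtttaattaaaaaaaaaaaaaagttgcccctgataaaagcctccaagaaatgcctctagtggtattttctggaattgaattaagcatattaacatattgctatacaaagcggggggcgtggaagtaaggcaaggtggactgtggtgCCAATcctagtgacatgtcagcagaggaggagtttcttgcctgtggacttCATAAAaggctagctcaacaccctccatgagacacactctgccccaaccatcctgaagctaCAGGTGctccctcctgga
In the KRT20 window, CCAAT began 79 bases before the start, TTTATG was matched on the other strand from 29 bases before it, and CAGGTG began at base 33 after it. The KRT8 window held none of the 6. Of 35116 promoters of this length, 34.6% held CCAAT, 10.6% held TTTATG and 20.6% held CAGGTG. Of the other motifs, TATAAA was in 11.5% of them, GGGCGG in 44.95% and TGANTCA in 7.71%. A match of letters is not a binding site, and a window without a match says nothing of the factor.

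The pair of simple epithelia, KRT8 and KRT18, was high in all 3 cancer lines and at a few FPKM in HCEC-1CT. KRT8 (ENSG00000170421; chromosome 12, 52897187 to 52949954 in hg38, minus strand) had 600.5 FPKM in HCT116, 1856 FPKM in DLD-1 and 3122 FPKM in SW620, against 3.10 FPKM in HCEC-1CT. The 3 cancer lines thus lay 194, 598 and 1007 times above HCEC-1CT. KRT18 (ENSG00000111057; chromosome 12, 52948871 to 52952901, plus strand) stood at 194, 1043 and 1543 FPKM in HCT116, DLD-1 and SW620, against 4.05 FPKM in HCEC-1CT. That is 47.9, 258 and 381 times the HCEC-1CT level. For both genes SW620 was highest and HCT116 the lowest of the cancer lines, with SW620 over DLD-1 by 1.68 times for KRT8 and 1.48 times for KRT18. With 1 library per line there is no spread against which the order of DLD-1 and SW620 can be judged.

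KRT19, a type I chain that lacks most of the tail domain and pairs with KRT8, followed the same order. It (ENSG00000171345; chromosome 17, 41523617 to 41528308, minus strand) was at 567 FPKM in HCT116, 1555 FPKM in DLD-1 and 1664 FPKM in SW620, and was listed at 0 in HCEC-1CT. The values of DLD-1 and SW620 were within 1.07 times of each other. All 7 KRT19 transcripts of the table were listed at 0 in HCEC-1CT. Of all genes, 30 had at least 10 FPKM in each cancer line and were listed at 0 in HCEC-1CT, and KRT19 was the only one of the 9 among them. The same pattern for a cancer line, at 0 in that line and at least 10 FPKM in the other 3, was shown by 5 genes for HCT116, 7 for DLD-1 and 3 for SW620. Among nuclear protein-coding genes ordered by FPKM, KRT8, KRT19 and KRT18 ranked 57, 61 and 163 in HCT116. They ranked 4, 5 and 9 in DLD-1 and 3, 9 and 11 in SW620. In HCEC-1CT, KRT8 and KRT18 ranked 8965 and 8283.

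**Figure D1:**
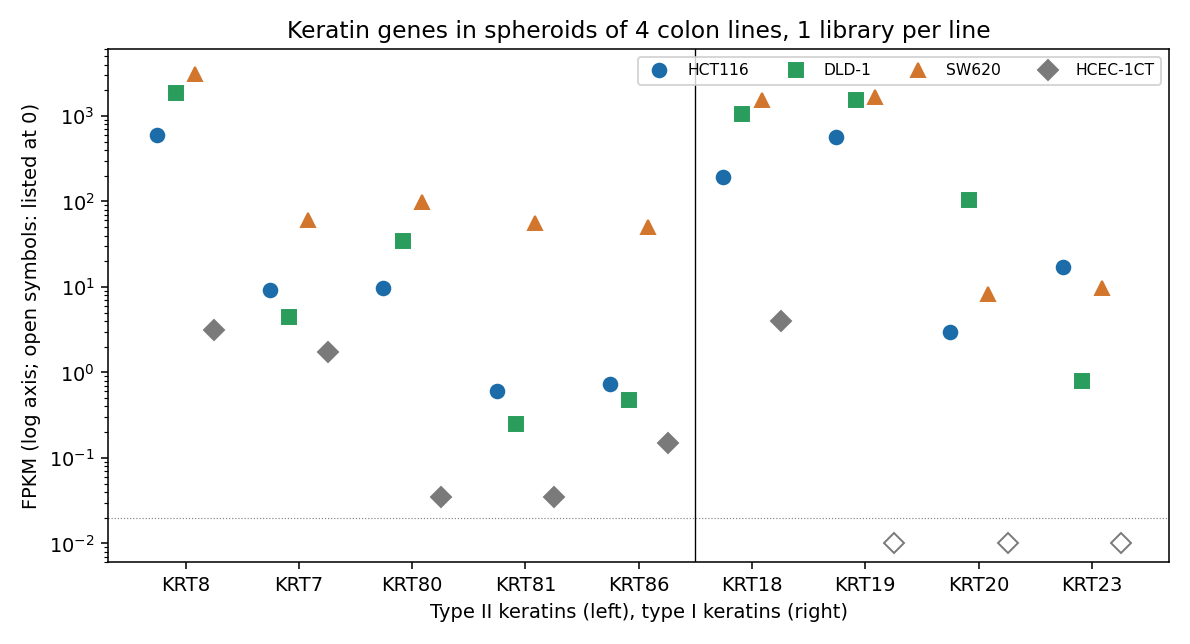
FPKM of the 9 keratin genes on a log axis, with 1 point per line and open symbols for values listed at 0; type II genes are on the left and type I genes on the right. KRT8, KRT18 and KRT19 lie between 194 and 3122 FPKM in the cancer lines, and HCEC-1CT is the lowest point for all 9 genes.

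KRT20, the differentiation marker, set DLD-1 apart. KRT20 (ENSG00000171431; chromosome 17, 40875941 to 40885227, minus strand) had 2.94 FPKM in HCT116, 105 FPKM in DLD-1 and 8.26 FPKM in SW620, and was listed at 0 in HCEC-1CT. DLD-1 was 12.7 times above SW620 and 35.8 times above HCT116. The level in DLD-1 was 2.29% of the summed FPKM of the 9 keratins, against 0.210% in HCT116 and 0.125% in SW620. Nearly all of it came from the full coding transcript KRT20-201, at 102 FPKM in DLD-1.

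KRT23 had the opposite order. KRT23 (ENSG00000108244; chromosome 17, 40922696 to 40937634, minus strand) had 17.3 FPKM in HCT116, 0.786 FPKM in DLD-1 and 9.77 FPKM in SW620, and was listed at 0 in HCEC-1CT. It was the only one of the 9 genes that was highest in HCT116. Its transcripts differed between the lines: in HCT116 the coding KRT23-202 held 53.9% of the gene's FPKM, while in SW620 KRT23-202 was listed at 0 and KRT23-207, which retains an intron, held 54.8%. Transcripts annotated as protein coding summed to 11.6 FPKM in HCT116, 0.786 FPKM in DLD-1 and 4.41 FPKM in SW620. The antisense gene AC004231.1 spans this locus and stood at 1.59, 0.0294 and 1.02 FPKM in HCT116, DLD-1 and SW620, and was listed at 0 in HCEC-1CT. The sources used here do not say if strand was kept in counting, so reads of this gene and its antisense partner cannot be told apart, and the same holds for each antisense pair below.

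Among the type II genes, KRT80 had the same order of lines as KRT8. KRT80 (ENSG00000167767; chromosome 12, 52168996 to 52192000, minus strand) had 9.62 FPKM in HCT116, 34.9 FPKM in DLD-1 and 97.5 FPKM in SW620, against 0.0348 FPKM in HCEC-1CT. The HCEC-1CT value corresponds to about 4 fragments. The coding transcripts KRT80-201 and KRT80-202 were at similar levels in HCT116, with 3.44 and 3.04 FPKM. In DLD-1 KRT80-202 was the higher of them, with 14.2 against 11.2 FPKM, and in SW620 KRT80-201 was, with 54.1 against 29.4 FPKM.

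KRT81 and KRT86, the hair keratins, were high in SW620 and near 0 in the other lines. KRT81 (ENSG00000205426; chromosome 12, 52285913 to 52291534, minus strand) had 0.602 FPKM in HCT116, 0.247 FPKM in DLD-1 and 56.3 FPKM in SW620, against 0.0350 FPKM in HCEC-1CT. These values correspond to about 29, 11 and 3121 fragments in the cancer lines and 2 in HCEC-1CT. KRT86 (ENSG00000170442; chromosome 12, 52249300 to 52309163, plus strand) stood at 0.724, 0.481 and 49.7 FPKM in HCT116, DLD-1 and SW620, against 0.149 FPKM in HCEC-1CT. KRT81 over KRT86 was 1.13 in SW620. Hair keratin filaments pair these chains with type I hair keratins, and the 11 genes from KRT31 to KRT40 summed to 4.51, 7.13 and 1.68 FPKM in HCT116, DLD-1 and SW620, and were all listed at 0 in HCEC-1CT. SW620, with the highest type II hair keratins, thus had the lowest sum of type I hair keratins among the cancer lines.

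The sequences of KRT81 and KRT86 are close, so the split of reads between them is uncertain. The coding sequences of KRT81-201 (1515 bases) and KRT86-201 (1458 bases) in GENCODE 29 were identical at 1361 of 1519 aligned positions, or 89.6%. From coding base 61 to 665, counted from 1 at the start codon, they did not differ at all, a run of 605 bases. The transcripts listed for KRT86 also differed between lines. In SW620, 99.6% of its FPKM was in KRT86-201, at 49.5 FPKM, which was listed at 0 in the other 3 lines. KRT86-202, whose start lies upstream and whose span contains KRT81, had 0.724, 0.481 and 0.0528 FPKM in HCT116, DLD-1 and SW620, against 0.149 FPKM in HCEC-1CT, and was all of KRT86 in HCT116, DLD-1 and HCEC-1CT. These values correspond to about 41, 25 and 3 fragments in the cancer lines and 10 in HCEC-1CT. The difference in transcripts thus rests on few fragments outside SW620. AC121757.1, an antisense gene inside KRT86, stood at 0.270, 1.36 and 14.8 FPKM in HCT116, DLD-1 and SW620, and was listed at 0 in HCEC-1CT. KRT83, the next hair keratin gene, had 0.178, 0.0913 and 1.92 FPKM in HCT116, DLD-1 and SW620, and was listed at 0 in HCEC-1CT.

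The value of KRT7 depends on which transcripts are counted. KRT7 (ENSG00000135480; chromosome 12, 52232520 to 52252186, plus strand) had 9.34 FPKM in HCT116, 4.44 FPKM in DLD-1 and 60.04 FPKM in SW620, against 1.72 FPKM in HCEC-1CT. By gene value SW620 was 6.43 times above HCT116. The full coding transcript KRT7-201 had another order, with 7.05 FPKM in HCT116, 0 FPKM in DLD-1 and 3.24 FPKM in SW620, against 0.0121 FPKM in HCEC-1CT. In SW620 the gene value was mostly made of KRT7-212, a processed transcript of 816 bases at 28.8 FPKM, and of a transcript of the table that GENCODE 29 does not hold, at 17.1 FPKM. Protein-coding transcripts made up 75.9%, 0% and 6.0% of KRT7 in HCT116, DLD-1 and SW620, against 0.702% in HCEC-1CT. The antisense gene KRT7-AS lies over the same part of the locus and stood at 0.629, 0.946 and 7.83 FPKM in HCT116, DLD-1 and SW620, against 0.1001 FPKM in HCEC-1CT.

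**Figure D2:**
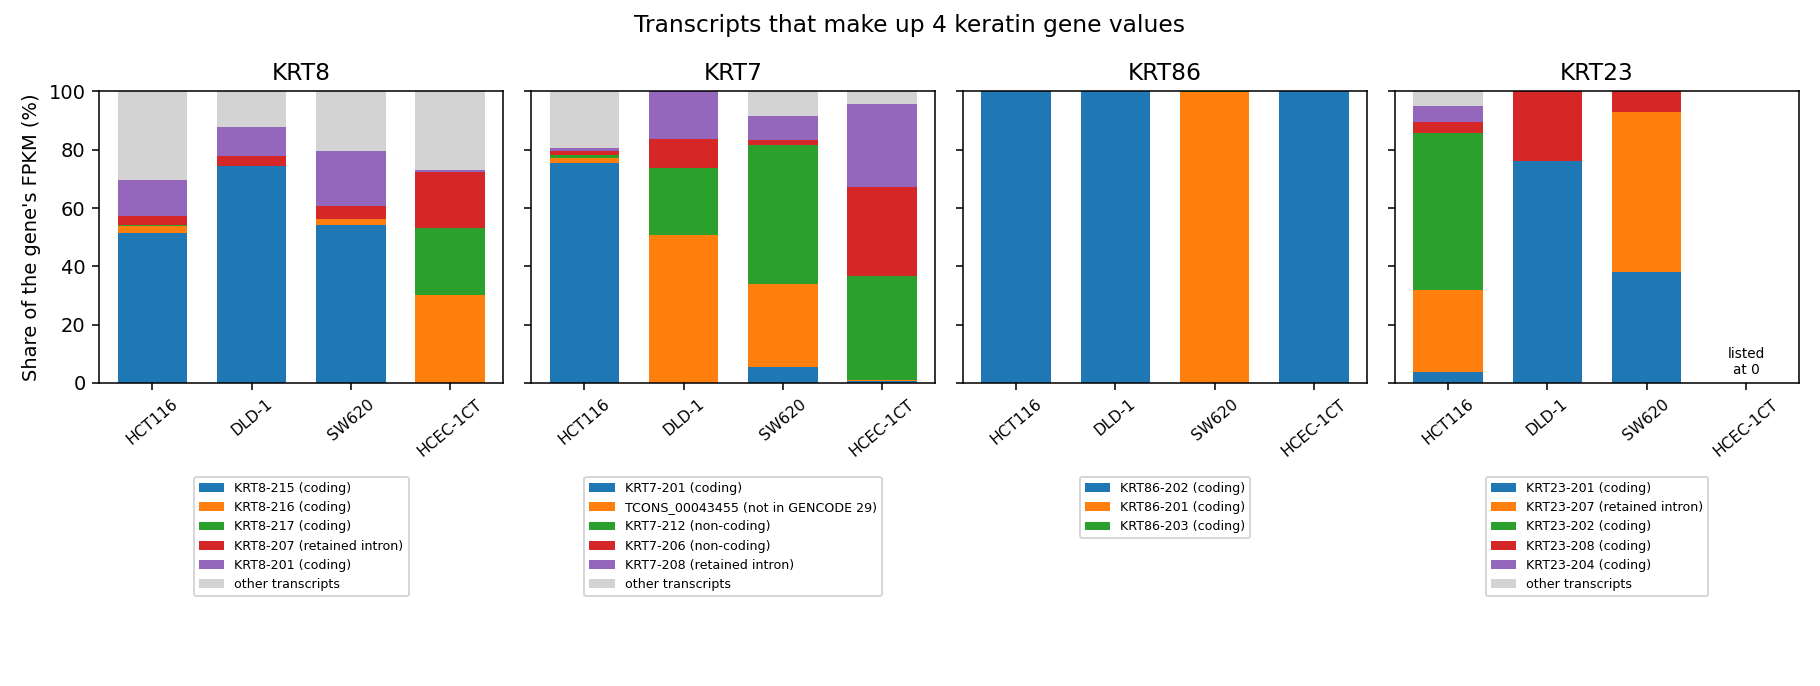
Share of each gene's FPKM, in percent, held by its transcripts in each line, for KRT8, KRT7, KRT86 and KRT23; the 5 transcripts with the highest share in any line are coloured and the rest are grey. KRT8-215 leads KRT8 in the cancer lines and is listed at 0 in HCEC-1CT, KRT7-201 leads KRT7 in HCT116 alone, and KRT86-201 leads KRT86 in SW620 alone. Outside SW620 the KRT86 shares rest on few fragments.

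The KRT8 value of HCEC-1CT was split over its transcripts in other shares than in the cancer lines. KRT8-216, which led in HCEC-1CT at 0.939 FPKM, was also present at 15.0, 1.64 and 69.2 FPKM in HCT116, DLD-1 and SW620. KRT8-215, whose start at 52926469 is the start of the RefSeq promoter printed above, held 51.5%, 74.4% and 54.1% of KRT8 in HCT116, DLD-1 and SW620, with 309, 1381 and 1688 FPKM in these lines, and was listed at 0 in HCEC-1CT. KRT8-201, which starts further into the gene at 52906618, had 74.4, 180.9 and 589.5 FPKM in HCT116, DLD-1 and SW620, against 0.0154 FPKM in HCEC-1CT. Of the 17 KRT8 transcripts, 8 overlap the KRT18 locus, which lies on the opposite strand. They held 14.7%, 3.76% and 8.57% of KRT8 in HCT116, DLD-1 and SW620, against 87.2% in HCEC-1CT. Reads of KRT8 and KRT18 in the overlap cannot be told apart by position. KRT8 also has processed copies elsewhere in the genome, whose reads may be shared with it. The 50 KRT8 pseudogenes summed to 10.3, 15.8 and 27.1 FPKM in HCT116, DLD-1 and SW620, against 7.73 FPKM in HCEC-1CT. These sums are 1.71%, 0.851% and 0.866% of KRT8 in the cancer lines, but 249% of it in HCEC-1CT. The 67 KRT18 pseudogenes summed to 2.27, 4.73 and 3.45 FPKM in HCT116, DLD-1 and SW620, against 1.90 FPKM in HCEC-1CT. KRT18-201 was the most abundant KRT18 transcript in all 4 lines, with 55.2%, 49.3% and 63.2% of the gene in HCT116, DLD-1 and SW620, and 35.3% in HCEC-1CT.

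The partners were then compared by type. The 5 type II genes summed to 621 FPKM in HCT116, 1896 FPKM in DLD-1 and 3386 FPKM in SW620, against 5.04 FPKM in HCEC-1CT. The 4 type I genes summed to 780.7, 2704 and 3225 FPKM in HCT116, DLD-1 and SW620, against 4.05 FPKM in HCEC-1CT. Type II over type I was 0.795, 0.701 and 1.05 in HCT116, DLD-1 and SW620, against 1.25 in HCEC-1CT, where the balance rests on a few FPKM. In every cancer line the 2 types were thus within 1.5 times of each other by gene values, although their sums differed by several times between lines. With each line's own most abundant transcript of each gene alone, the log2 ratio of type II over type I was -0.97 in HCT116 and -0.43 in SW620, against -0.33 and 0.07 by gene values, while HCEC-1CT had 0.31 and 0.32. Counting only protein-coding transcripts gave -0.45 in HCEC-1CT, so which type was higher in SW620 and HCEC-1CT depends on the transcripts counted. KRT8 alone exceeded KRT18 by 3.10, 1.78 and 2.02 times in HCT116, DLD-1 and SW620, while in HCEC-1CT KRT8 over KRT18 was 0.766. Adding KRT19 to KRT18 brought the ratio of KRT8 to its type I partners to 0.790, 0.714 and 0.974 in HCT116, DLD-1 and SW620. KRT19 over KRT18 was 2.92, 1.49 and 1.08 in HCT116, DLD-1 and SW620, so the type I pool of HCT116 leaned most to KRT19. Messenger RNA levels do not give the amounts of the proteins.

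**Figure D3:**
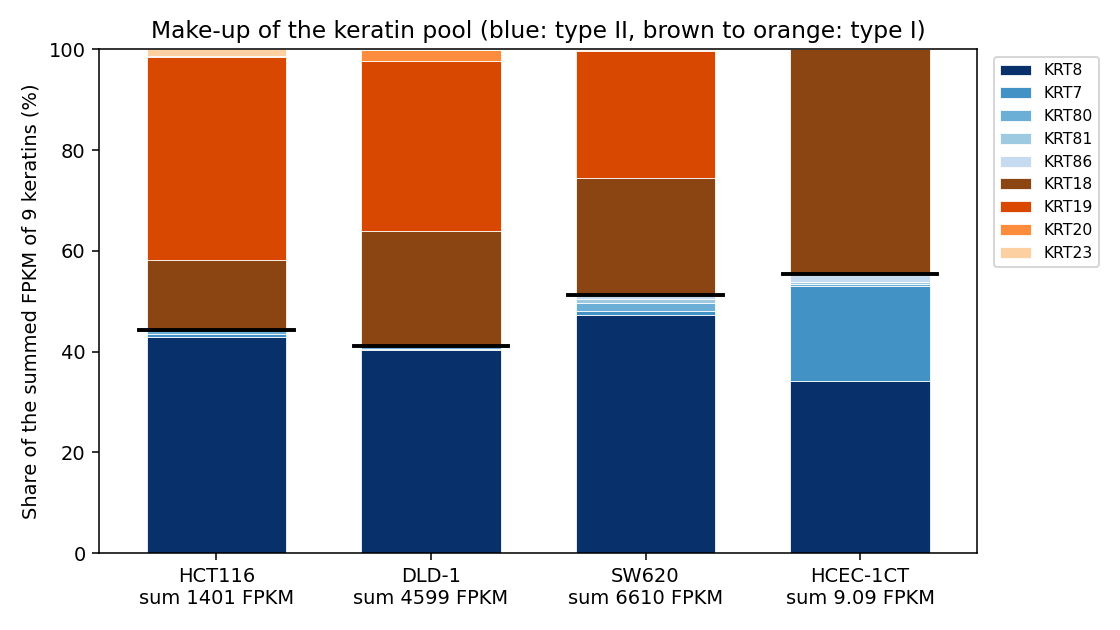
Share of the summed FPKM of the 9 keratins, in percent, held by each gene in each line; type II genes are blue and type I genes brown to orange, the black line marks the border of the types, and the sum is given under each bar. KRT8, KRT18 and KRT19 hold 97.1%, 96.8% and 95.7% of the sum in HCT116, DLD-1 and SW620, and the sum in HCEC-1CT is only 9.09 FPKM.

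The 9 genes summed to 1401 FPKM in HCT116, 4599 FPKM in DLD-1 and 6610.4 FPKM in SW620, against 9.09 FPKM in HCEC-1CT. That was 0.462%, 1.56% and 2.14% of the FPKM of nuclear protein-coding genes in the cancer lines, and 0.00324% in HCEC-1CT. Cancer lines and HCEC-1CT were then compared over all genes on the log2(FPKM + 1) scale, which understates the change of low genes, and a gene with 1 FPKM or more in either library was called higher or lower from 4-fold. In HCT116 7 of the 9 genes reached 1 FPKM in either library and 5 were higher by this rule (KRT8, KRT18, KRT19, KRT23 and KRT80), against 10.3% of all 16280 genes tested. In DLD-1 6 reached 1 FPKM and 5 were higher (KRT8, KRT18, KRT19, KRT20 and KRT80), against 10.4% of 16504 genes. In SW620 all 9 reached 1 FPKM and all 9 were higher, against 10.3% of 16095 genes. None of the 9 was lower in any cancer line, where 5.73%, 6.3% and 6.36% of genes were lower in HCT116, DLD-1 and SW620. Only KRT8 and KRT18, at 3.10 and 4.05 FPKM in HCEC-1CT, were high enough there to be called lower on this scale. KRT19, KRT20, KRT23, KRT80, KRT81 and KRT86 were under 1 FPKM in HCEC-1CT. Where tested, they passed the filter through the cancer line alone, so the absence of lower calls is no result for them. KRT8, KRT18, KRT19 and KRT80 were higher in all 3 cancer lines, as were 500 genes in all. The 3 comparisons share the HCEC-1CT library.

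**Figure D4:**
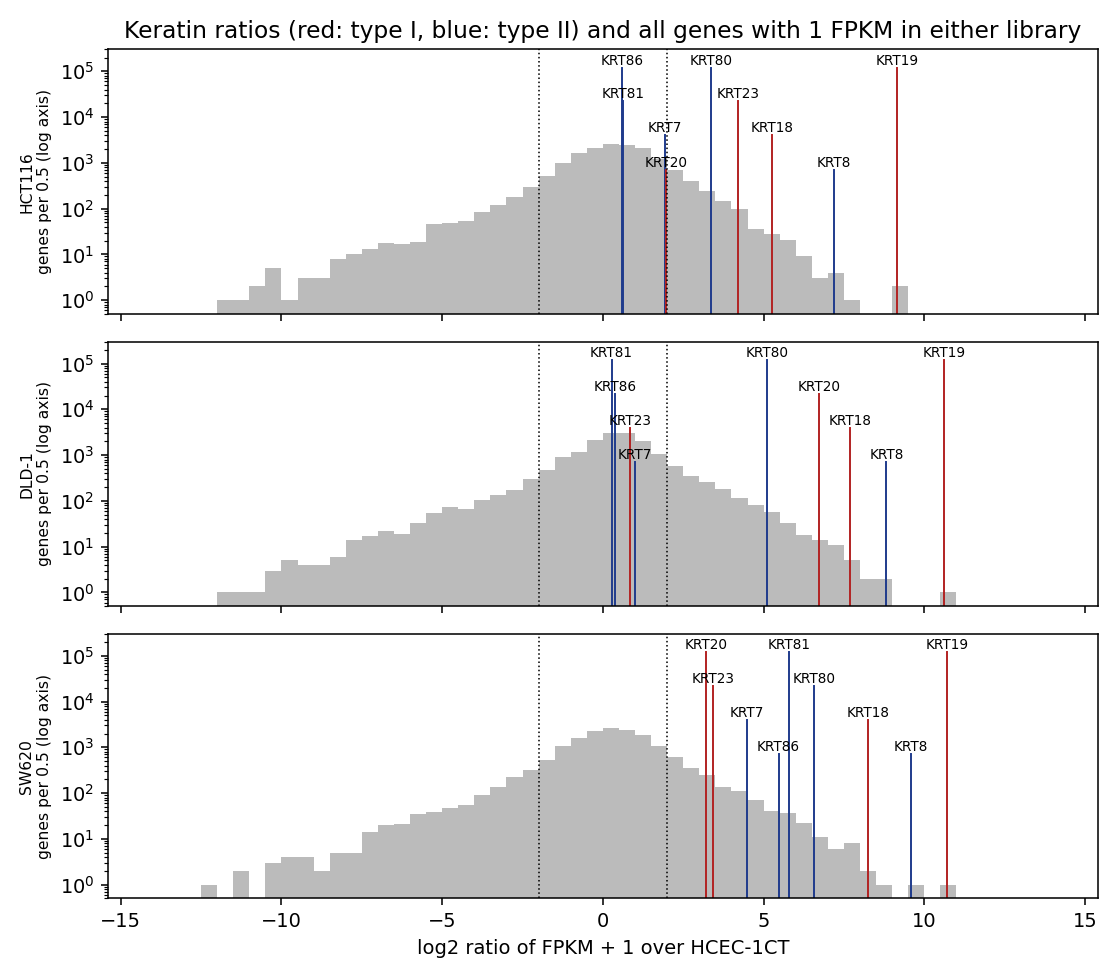
Number of genes per 0.5 log2 units of the ratio of FPKM + 1 in each cancer line over HCEC-1CT (grey, log axis), for genes with at least 1 FPKM in either library, with the 9 keratins as vertical lines of arbitrary height and the 4-fold limits dotted. The 9 keratins all lie right of the upper limit in SW620, while KRT81, KRT86 and KRT7, with KRT20 in HCT116 and KRT23 in DLD-1, lie between the limits in those lines. For genes listed at 0 in HCEC-1CT the position depends on the pseudocount, and KRT81 and KRT86 did not reach 1 FPKM in those 2 comparisons.

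KRT8 had log2 ratios of 7.20, 8.82 and 9.57 over HCEC-1CT in HCT116, DLD-1 and SW620, and KRT18 had 5.27, 7.69 and 8.26. With the pseudogenes added, KRT8 had 5.69, 7.31 and 8.06, and without its transcripts over KRT18 it had 8.52, 10.32 and 11.00, so the size of its difference depends on what is counted in HCEC-1CT. KRT80 had 3.36, 5.12 and 6.57. KRT7 had 1.92, 1.00 and 4.49 by gene values, but 3.00, -0.02 and 2.19 by its coding transcripts. KRT7-212 alone, the KRT7 transcript with the highest sum over the 4 libraries, gave -0.55 in HCT116, where KRT7-201 led, and each line's own most abundant KRT7 transcript gave 2.32 there. The median over all genes tested was 0.39, 0.43 and 0.29. KRT20 and KRT7 in HCT116, at 2.94 and 9.34 FPKM, came just short of the 4-fold limit on this scale.

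Between the cancer lines, KRT19 was the only one of the 9 genes that passed the 4-fold limit in no pair. Of the 9, 7 reached 1 FPKM in HCT116 or DLD-1, and all 9 did in the other pairs. HCT116 against DLD-1 had KRT23 higher and KRT18 and KRT20 lower by 4-fold or more, where 5.51% of 16718 genes were higher and 5.04% lower. HCT116 against SW620 had none of the 9 higher and 6 lower (KRT8, KRT18, KRT7, KRT80, KRT81 and KRT86), where 3.95% of 16005 genes were higher and 4.37% lower. DLD-1 against SW620 had KRT20 higher and KRT7, KRT81, KRT86 and KRT23 lower, where 4.82% of 16433 genes were higher and 5.35% lower. These counts and the spreads below use gene values. By coding transcripts KRT7 was at 7.08, 0 and 3.60 FPKM in HCT116, DLD-1 and SW620, so HCT116 was then above SW620. The KRT7 calls between cancer lines thus depend on the transcripts counted. The spread of a gene over the cancer lines, as its highest over its lowest FPKM, was smallest for KRT19 (2.94 times) and KRT8 (5.20 times). It was 7.96 times for KRT18, 10.1 for KRT80, 13.5 for KRT7, 22.1 for KRT23, 35.8 for KRT20, 103 for KRT86 and 228 for KRT81.

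Of the 45 other keratin genes, 13 reached 1 FPKM in at least 1 line and 6 were listed at 0 in all. Against HCEC-1CT, 5, 6 and 4 of the 24 type I genes reached 1 FPKM in either library for HCT116, DLD-1 and SW620. By 4-fold 2, 4 and 2 of these were higher. Of the 21 type II genes 0, 4 and 2 reached 1 FPKM, and 0, 1 and 0 were higher. Of all genes tested, 10.3%, 10.4% and 10.3% were higher. None of the 45 was lower, and only KRT10 of them reached 1 FPKM in HCEC-1CT. The 9 genes held 95.5%, 98.7% and 99.2% of the keratin FPKM in HCT116, DLD-1 and SW620, but 42.3% in HCEC-1CT, where KRT10 was the highest keratin. KRT10, the type I chain of the upper epidermis, stood at 38.2, 4.46 and 12.6 FPKM in HCT116, DLD-1 and SW620, against 11.9 FPKM in HCEC-1CT. KRT15, a type I chain of basal epithelial cells, stood at 17.0, 5.43 and 10.8 FPKM in the cancer lines, against 0.0192 FPKM in HCEC-1CT. KRT16, a type I chain of stressed skin, was led by DLD-1, at 1.37, 21.7 and 1.27 FPKM, and KRT17 by SW620, at 0.141, 0.301 and 19.4 FPKM; both were listed at 0 in HCEC-1CT. KRT6A, a type II partner of KRT16 and KRT17, stood at 0.017, 9.99 and 2.67 FPKM in HCT116, DLD-1 and SW620, and was listed at 0 in HCEC-1CT. KRT1, the type II partner of KRT10, and KRT84, a hair keratin, were at 2.51 and 2.06 FPKM in DLD-1 and listed at 0 in HCT116, SW620 and HCEC-1CT.

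**Figure D5:**
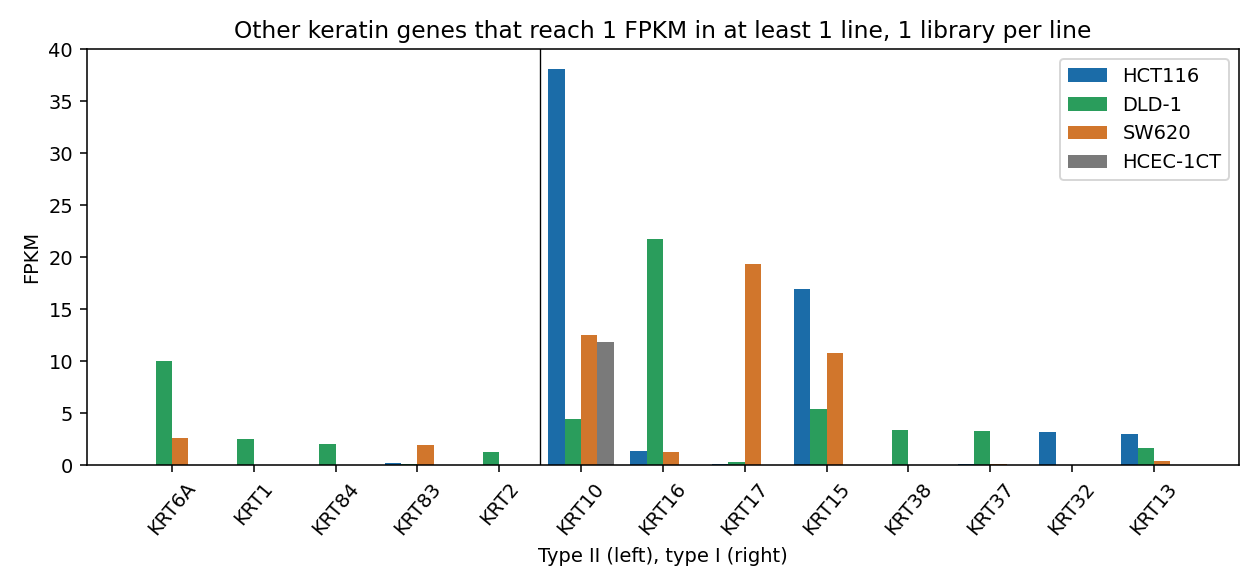
FPKM of the 13 other keratin genes that reach 1 FPKM in at least 1 line, 1 bar per line, type II genes left of the vertical line. KRT10 is the only one of them with a visible bar in HCEC-1CT, at 11.9 FPKM, and the highest of the type II genes is KRT6A in DLD-1, at 9.99 FPKM.

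Among the other intermediate filament genes, VIM, the vimentin of mesenchymal cells, stood at 1.16, 0.858 and 223 FPKM in HCT116, DLD-1 and SW620, against 572 FPKM in HCEC-1CT. VIM was 62.9 times the sum of the 9 keratins in HCEC-1CT, while SW620 held high levels of both. LMNA, a lamin of the nuclear lining, stood at 107, 143 and 195 FPKM in the cancer lines, against 46.8 FPKM in HCEC-1CT, and LMNB2 at 57.4, 37.5 and 22.7 against 7.46 FPKM. LMNA thus had the same order of lines as KRT8, KRT18, KRT19 and KRT80. NES, the nestin of progenitor cells, stood at 11.4, 0.0692 and 47.5 FPKM, against 1.13 FPKM in HCEC-1CT. Of 15 such genes, 9, 5 and 7 reached 1 FPKM in either library for HCT116, DLD-1 and SW620. Of these 6, 2 and 2 were higher by 4-fold, and 1, 1 and 0 were lower. The list medians over the genes that reached 1 FPKM were 2.44, 1.59 and 1.78 on the log2 scale.

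A further list held genes whose proteins anchor keratin filaments to desmosomes and hemidesmosomes, or are otherwise tied to these filaments. Most of them were higher. Of 16 genes 15 reached 1 FPKM, and 10, 11 and 9 were higher by 4-fold in HCT116, DLD-1 and SW620, with none lower and medians of 2.80, 4.17 and 2.89. Of all genes tested, 10.3%, 10.4% and 10.3% were higher. Only 6 of the 16 reached 1 FPKM in HCEC-1CT, so the others could not be called lower. DST, at 34.2, 61.1 and 33.9 against 81.5 FPKM, and DNAJB6, at 28.8, 25.2 and 21.7 against 31.4 FPKM, lay below HCEC-1CT in each cancer line, short of 4-fold. ITGB4 and ITGA6, the integrin pair of hemidesmosomes, had 47.0, 92.1 and 362 FPKM (ITGB4) and 23.5, 85.2 and 173 FPKM (ITGA6) in HCT116, DLD-1 and SW620, against 0.179 and 0.384 FPKM in HCEC-1CT. The plakin PLEC, which links filaments of several kinds, passed 4-fold in no line, at 94.7, 81.5 and 183 FPKM, against 66.8 FPKM in HCEC-1CT, and JUP, plakoglobin, stood at 98.3, 121 and 165 FPKM, against 21.4 FPKM in HCEC-1CT.

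Of 17 transcription factors of epithelia, 13, 14 and 11 reached 1 FPKM in either library for HCT116, DLD-1 and SW620. Of these 10, 11 and 7 were higher by 4-fold and none was lower, with medians of 2.45, 4.29 and 2.81. Only 4 of the 17 reached 1 FPKM in HCEC-1CT, so the others could not be called lower. Of all genes tested, 10.3%, 10.4% and 10.3% were higher. The medians leave out factors under 1 FPKM in both libraries, such as GRHL2 in SW620, listed at 0 there and in HCEC-1CT. ELF3 stood at 72.6, 305 and 229.9 FPKM in the cancer lines, against 2.13 FPKM in HCEC-1CT, KLF5 at 49.2, 67.7 and 227 against 21.4 FPKM, and EHF at 3.51, 75.4 and 184 against 7.14 FPKM. CDX2, a homeobox factor of intestine, was led by DLD-1 like KRT20, at 3.27, 70.8 and 6.04 FPKM in HCT116, DLD-1 and SW620, and was listed at 0 in HCEC-1CT. Of the 6 repressors of epithelial genes, 5, 5 and 3 were lower by 4-fold in HCT116, DLD-1 and SW620 and 1, 0 and 0 higher, with medians of -3.49, -4.25 and -2.84. ZEB2 was listed at 0 in all 3 cancer lines and stood at 54.0 FPKM in HCEC-1CT. ZEB1 stood at 0.878, 0.417 and 5.98 FPKM, against 19.9 FPKM in HCEC-1CT, and TWIST1 at 2.57, 0 and 0, against 26.4 FPKM. TWIST2 was listed at 0 in HCT116 and DLD-1 and stood at 0.248 FPKM in SW620, against 20.5 FPKM in HCEC-1CT. SNAI1 instead stood above HCEC-1CT in HCT116 and SW620, at 12.5 and 8.13 FPKM, with 1.89 in DLD-1, against 2.24 FPKM in HCEC-1CT. It passed 4-fold in HCT116 alone. SNAI2 stood at 0.501, 0.0176 and 9.47 FPKM in HCT116, DLD-1 and SW620, against 16.1 FPKM in HCEC-1CT.

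Of the 12 genes of differentiated colonocytes, 1, 4 and 4 reached 1 FPKM in HCT116, DLD-1 and SW620, against 0 in HCEC-1CT, and their sums were 20.3, 380.5 and 71.9 FPKM, against 0.104 FPKM. By 4-fold 1, 4 and 2 were higher, with medians of 4.4, 5.67 and 2.92. CDH17, an intestinal cadherin, stood at 0.0833, 179 and 20.5 FPKM in HCT116, DLD-1 and SW620, against 0.0551 FPKM in HCEC-1CT. PHGR1 stood at 178 FPKM in DLD-1 and 1.80 in SW620 and was listed at 0 in HCT116 and HCEC-1CT. VIL1, the villin of microvilli, was instead led by SW620, at 0.0919, 8.06 and 47.5 FPKM, against 0.0492 FPKM in HCEC-1CT, and the carbonic anhydrase CA2 by HCT116, at 20.1, 14.1 and 1.14 FPKM, and was listed at 0 in HCEC-1CT. KRT20 was thus led by the same line as CDH17 and PHGR1, but not as VIL1 and CA2.

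All 12 epithelial markers were higher by 4-fold in HCT116 and DLD-1 and 10 in SW620, with medians of 5.03, 6.68 and 5.15. SPINT1 and SPINT2, inhibitors of serine proteases, had 50.7, 196 and 58.8 FPKM (SPINT1) and 126, 174 and 210.1 FPKM (SPINT2) in HCT116, DLD-1 and SW620, with SPINT1 at 0.4804 FPKM and SPINT2 listed at 0 in HCEC-1CT. EPCAM stood at 144, 406 and 237 FPKM in the cancer lines, and was listed at 0 in HCEC-1CT, and the claudin CLDN4 at 20.3, 284 and 6.93 FPKM, against 0.146 FPKM in HCEC-1CT. Of the 13 fibroblast markers 12, 13 and 12 were lower, with medians of -5.13, -6.39 and -4.94, and 3, 9 and 3 were listed at 0 in HCT116, DLD-1 and SW620. In HCEC-1CT COL1A2, COL3A1, DCN and PDGFRA stood at 208, 198, 191 and 110 FPKM and in no cancer line at 1 FPKM. LUM stood at 0.0518, 0 and 24.5 FPKM in HCT116, DLD-1 and SW620, against 188 FPKM in HCEC-1CT.

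The 7 smooth muscle markers summed to 19.99, 1.35 and 3.36 FPKM in HCT116, DLD-1 and SW620, against 15.7 FPKM in HCEC-1CT, among them the actin ACTA2 with 14.4, 1.30 and 0.713 FPKM, against 10.6 FPKM in HCEC-1CT. DES, CNN1 and ACTG2 stayed under 5 FPKM in every line. Of the smooth muscle markers 5, 4 and 5 reached 1 FPKM in either library, with 1, 0 and 0 higher by 4-fold and 0, 1 and 1 lower. The 8 endothelial markers summed to 41.0, 4.74 and 34.5 FPKM, against 11.5 FPKM in HCEC-1CT, among them EGFL7 with 37.5, 1.51 and 17.8 FPKM, against 1.91 FPKM, and PECAM1 with 0.645, 0.125 and 15.0 FPKM, against 5.32 FPKM. ESAM and TEK stayed under 5 FPKM in every line. Here 4, 4 and 3 markers reached 1 FPKM in either library, with 1, 0 and 1 higher and 0, 2 and 1 lower. The 10 immune cell markers summed to 5.79, 1.88 and 43.7 FPKM, against 17.2 FPKM in HCEC-1CT. Among them LYZ was at 24.5 FPKM in SW620, CD68 at 4.65, 1.40 and 16.6 FPKM, against 7.56 FPKM in HCEC-1CT, and CD14 at 9.40 FPKM in HCEC-1CT, while CSF1R stayed under 5 FPKM in every line. Of the immune cell markers 2, 2 and 4 reached 1 FPKM in either library, with 0, 0 and 1 higher and 1, 1 and 1 lower. The 7 mesothelial markers, of cells that also carry KRT8, KRT18 and KRT19, summed to 52.4, 6.11 and 65.5 FPKM, against 4.07 FPKM in HCEC-1CT. Of the mesothelial markers 3, 3 and 4 reached 1 FPKM in either library, with 2, 1 and 2 higher and 1, 1 and 1 lower. Their sum had the order of lines of KRT7, KRT81 and KRT86. MSLN, mesothelin, made most of it in HCT116 and SW620, at 46.7, 1.62 and 46.3 FPKM in the cancer lines, and was listed at 0 in HCEC-1CT, while CALB2 had 5.17, 0.0292 and 14.2 FPKM, against 0.350 FPKM, and UPK3B and BNC1 stayed under 5 FPKM in every line. The part of any of these cell types in the keratin levels was not tested.

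Likeness of profile was measured as the Euclidean distance between log2(FPKM + 1) values centred on their mean over the 4 lines, among 8810 protein-coding genes that reach 10 FPKM. It describes 4 points that share their libraries, and says nothing of shared control. KRT8 was nearest to KRT18, at 1.39, and outside the family to EPCAM, SPINT2 and ITGB4, at 1.41, 1.55 and 1.85. KRT18 was nearest to CDH1 (0.97), CD24 (1.13) and ITGB4 (1.23), and KRT19 to EPCAM (2.06), SPINT2 (2.51) and SFN (2.99), with KRT8 closer than these, at 1.53. KRT80 was nearest to MYO15B (0.52), ITGA6 (0.68) and B3GNT3 (0.74). KRT20 was nearest to PRSS23 (0.06), CDX2 (0.56) and SLCO1B3 (0.62), and KRT23 to ARTN (0.51), PPP2R2C (0.52) and DUSP5 (0.55). KRT7 was nearest to GCOM1 (0.11), CGNL1 (0.21) and SERPINI1 (0.25). KRT81 and KRT86 lay 0.32 from each other, and INPP5D was the nearest other gene to each, at 0.36 and 0.26; for KRT81 GJB1 (0.47) and TOX3 (0.48) followed, and for KRT86 FZD10 (0.42) and TMEM163 (0.46).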

How the data were processed

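RNA from spheroids of 4 cell lines was sequenced, 1 library each. The authors deposited FPKM values for 58740 genes and 207345 transcripts. The submitters' processing notes name FastQC, HISAT2 and build hg38 without versions, with the program behind FPKM, annotation, filters and strand all not given in the sources used here. Both files hold a value column, 1 in each, that fits none of the 4 labelled lines, and it was left unused. For the 9 genes, coordinates equalled those of GENCODE 29 and transcripts summed to the gene value within 0.000231 FPKM. Strands, gene and transcript types and coding sequences come from that release.

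Ratios, counts and sums were computed with Python 3.11.15, pandas 2.3.3 and numpy 2.4.6. With 1 library per line no test was made. Depth came from genes with 1 transcript of at least 1000 bases, where FPKM times length clusters at whole multiples of a step: 118 to 135 values per library lay within 0.01 of 2 steps, and 3 to 6 lay as near to a point 0.25 steps higher. Intervals for counting error are not given, since the fragments are an estimate. The 9 genes and the 13 lists were chosen with earlier results of these data known. From each list the 4 genes with the highest FPKM were named, plus up to 4 at 10 FPKM or more in HCEC-1CT and under 1 FPKM in each cancer line. A few others were named to show genes that went another way or fell under 1 FPKM. Of all genes tested against HCEC-1CT, 10.3%, 10.4% and 10.3% were higher in HCT116, DLD-1 and SW620. Lower were 5.73%, 6.3% and 6.36%. The list counts are to be read beside these shares. Of other keratins, those at 10 FPKM or more and the highest of each type were named. Likeness named the 3 nearest genes. Neighbouring genes and pseudogenes were looked up after values were seen. The counting of calls was checked only on HCEC-1CT values changed by set factors without noise. The outcome was fixed by that design, so it says nothing of error between libraries. Alternatives were the pseudocount, scaling, fold, filter, pseudogenes and the transcripts counted.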

Additional observations from a re-analysis of the deposited data

Results flagged for a closer look

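Among 62 genes looked at, 3 were at least 2-fold higher than HCEC-1CT in 1 cancer line and at least 2-fold lower in another, on the log2 scale of FPKM + 1. The ratios share the HCEC-1CT library, and with 1 library per line the difference was not tested. KRT10 had a log2 ratio of 1.60 in HCT116 and -1.24 in DLD-1 over HCEC-1CT. The endothelial marker PECAM1 had 1.34 in SW620 and -2.49 in DLD-1, and the macrophage marker CD68 had 1.04 in SW620 and -1.83 in DLD-1. None of the 9 keratins split in this way.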

How the results depend on the processing

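No paired analysis was possible because each line has 1 library, and for the same reason no library could be left out. The counts of keratins past the limit against HCEC-1CT stayed within 1.5 times under all alternatives run. Higher were 4 to 7 in HCT116, 5 in DLD-1 and 7 to 9 in SW620, and 0 were lower. Most of the 9 were under 1 FPKM in HCEC-1CT and could not be called lower. A pseudocount of 0.1 or a 2-fold rule gave 7 in HCT116, adding KRT20 and KRT7. A pseudocount of 5 gave 4 there and 7 in SW620. The shares of all genes given above hold for the main rule alone and were not worked out under these alternatives. A 2-fold rule also calls more of all genes, so its count cannot be read beside those shares. KRT8, KRT18 and KRT19 were called in every cancer line under each of these alternatives. Scaling by median ratios, whose log2 factors over HCEC-1CT were 0.38 for HCT116, 0.41 for DLD-1 and 0.29 for SW620, changed no call.

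The log2 ratio of type II over type I was -0.33, -0.51 and 0.07 in HCT116, DLD-1 and SW620 and 0.32 in HCEC-1CT. In HCEC-1CT it moved to -1.54 over all 54 keratin genes, 1.10 with pseudogenes added and -1.06 with 1 transcript per gene, the one with the highest sum over the 4 libraries, which for KRT8 and KRT86 is listed at 0 in HCEC-1CT. Chosen after seeing the data, each line's own most abundant transcripts gave 0.31 there, protein-coding transcripts alone gave -0.45 there, and leaving out KRT8 transcripts over KRT18 gave -0.79, so its direction is not settled. In HCT116 the transcripts with the highest sum over the libraries gave -0.999 and the line's own most abundant ones -0.97. In SW620 the sign turned with either choice (-0.43), coding transcripts (-0.09) and without the KRT8 transcripts over KRT18 (-0.05). The causes were not tested.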

Other observations

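One gene beside the type I keratin genes on chromosome 17 was looked at after its values were seen. KRTAP2-3 encodes a keratin-associated protein of hair, and lies from 41059240 to 41065876 in hg38. It had 58.8 FPKM in HCT116, 0.145 FPKM in DLD-1 and 0.601 FPKM in SW620, against 0.183 FPKM in HCEC-1CT. HCT116 was thus the line that led KRTAP2-3 and KRT23, while SW620 led KRT81 and KRT86. Related genes of this family have similar sequences, so the level is uncertain.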
